A study of Mus musculus with 15 samples.

Results

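The smooth muscle contractile genes are the 10 genes Acta2, Actg2, Myh11, Tagln, Cnn1, Smtn, Lmod1, Mylk, Rgs5 and Pdgfrb, followed here in mouse hearts 48 h after the induction of abdominal sepsis. They were chosen by symbol, as every probe set that the platform annotation pairs with exactly 1 of these names, which gave 18 probe sets of the 20380 paired with 1 gene and 10 of 12393 genes. Acta2, Myh11 and Pdgfrb have 2 probe sets each, Mylk has 3 and Rgs5 has 4, and probe sets of 1 gene share its RNA and are not replicates. Total RNA of whole hearts was hybridised to short oligonucleotide arrays, 1 array per heart, in 5 groups of 3. Septic mice had caecal ligation and perforation (CLP), which lets gut bacteria into the abdomen, and sham mice had the caecum moved and put back. The wild-type strain, C57/BL6, gave septic hearts labelled Max Dep, septic hearts labelled Min Dep, and sham hearts. The knockout strain, the congenic B6.129P2-Nos2tm1Lau/J (iNOS KO), which lacks the inducible nitric oxide synthase Nos2 in all cells, gave CLP hearts and sham hearts. Every mouse of all 5 groups had isoflurane, buprenorphine and saline at surgery, and ketamine with xylazine and a carotid catheter before the heart was taken. The measure that divides Max Dep from Min Dep hearts and the age of the mice are not given in the sources used here.

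Smooth muscle contracts when calcium and calmodulin switch on myosin light chain kinase, which phosphorylates myosin so that it pulls on actin. In the heart these genes mark chiefly the walls of coronary arteries and arterioles, while Rgs5 and Pdgfrb are also classical genes of pericytes, the contractile cells that wrap capillaries. Many of them are switched on together by serum response factor (Srf) and its cofactor myocardin (Myocd), which act at a promoter element called the CArG box.

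Wild-type values were deposited as a standardised score, in which each probe set has been brought to a common spread over the 9 arrays, so they carry no level and no fold, and a gene of small change looks like a gene of large change. A difference is given below in these standardised units. Knockout values form a second table from another array model, centred per probe set, and behave as log differences of a base that is not given. The 2 tables were never set against each other in a test, because genotype, table and array model cannot be told apart. Neither table shows a level, so the heart label could not be checked against the level of cardiac markers. In these bulk samples, fewer cells of a type and less RNA per cell cannot be told apart.

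A few arrays stand apart. Wild-type sham replicate 1 alone was high for the X inactivation transcript Xist, at 2.60 to 2.66 on 3 probe sets where no other wild-type array exceeded -0.049, and alone low for the Y-linked Eif2s3y, at -2.48, where no other fell under -0.681. Knockout sham replicate 2 was alone high for Eif2s3y, at 5.76. For Xist it was low, at -6.91 to -5.48, and so was knockout CLP replicate 1, at -3.63 to -2.46, while the other 4 knockout arrays lay between -0.141 and 1.86. Knockout CLP replicate 1 lay between the other 2 CLP arrays at 76% of probe sets, against 11.5% and 12.5% for those 2 arrays and 32.8% to 34.4% for the sham arrays, so it was taken as no independent replicate and left out of the knockout test. A control for RNA quality was the mean 5′ minus 3′ difference in deposited score of Gapdh and Actb control probe sets. It ran from -1.85 to 0.528 in Max Dep hearts and from -0.559 to 0.068 in Min Dep hearts. In sham hearts it ran from 0.39 to 1.76. These scores are standardised or centred per probe set, so the control gives no level of degradation. In wild-type hearts it is not a log ratio of 5′ to 3′ signal. Nos2 itself did not check the genotype labels, since its probe set, 1420393_at, gave -1.44 to 0.571 in knockout CLP hearts and -0.721 to 1.06 in knockout sham hearts.

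All 18 probe sets had a lower mean in septic than in sham wild-type hearts, with a median difference of -1.76, against 0.027 over all probe sets tested, of which 49.1% were lower. Only 1 of the 18 passed the test, that of Smtn, which fell by 1.98 ± 0.33 standardised units (SE; 6 septic and 3 sham hearts, limma adjusted p = 0.0445). Over all 20380 probe sets 1.54% passed as lower and 0.976% as higher, 314 and 199 probe sets. At an unadjusted p under 0.05 stood 12 of the 18, against 20.5% of all probe sets, and in 9 of the 18 no septic heart reached the lowest sham heart, against 7.95% of all. When the probe sets of each gene were averaged first, all 10 genes had a negative difference and 0 passed, against 0.379% of all genes that passed as lower, with adjusted p of 0.0569 for Smtn, 0.0842 for Actg2 and 0.0859 for Rgs5. The call of Smtn also ends under limma's moderated statistics, which pass 0 of all probe sets here (Smtn adjusted p = 0.119), and with 1 array left out: its adjusted p was 0.0702 to 0.154 when any of the 3 sham arrays, any of the 3 Max Dep arrays, or Min Dep replicate 1 or 3 was left out. It stayed past the threshold only when Min Dep replicate 2 was the array left out. Without sham replicate 1, 17 of the 18 stayed negative with a median of -2.00, and 0 of all probe sets passed. With the 5′ minus 3′ control as a covariate 15 of the 18 stayed negative, with a median of -1.79, and 0 of all probe sets passed. The members at an unadjusted p under 0.05 went from 12 to 6 with this covariate, and the share of all probe sets from 20.5% to 14.2%.

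**Figure D1:**
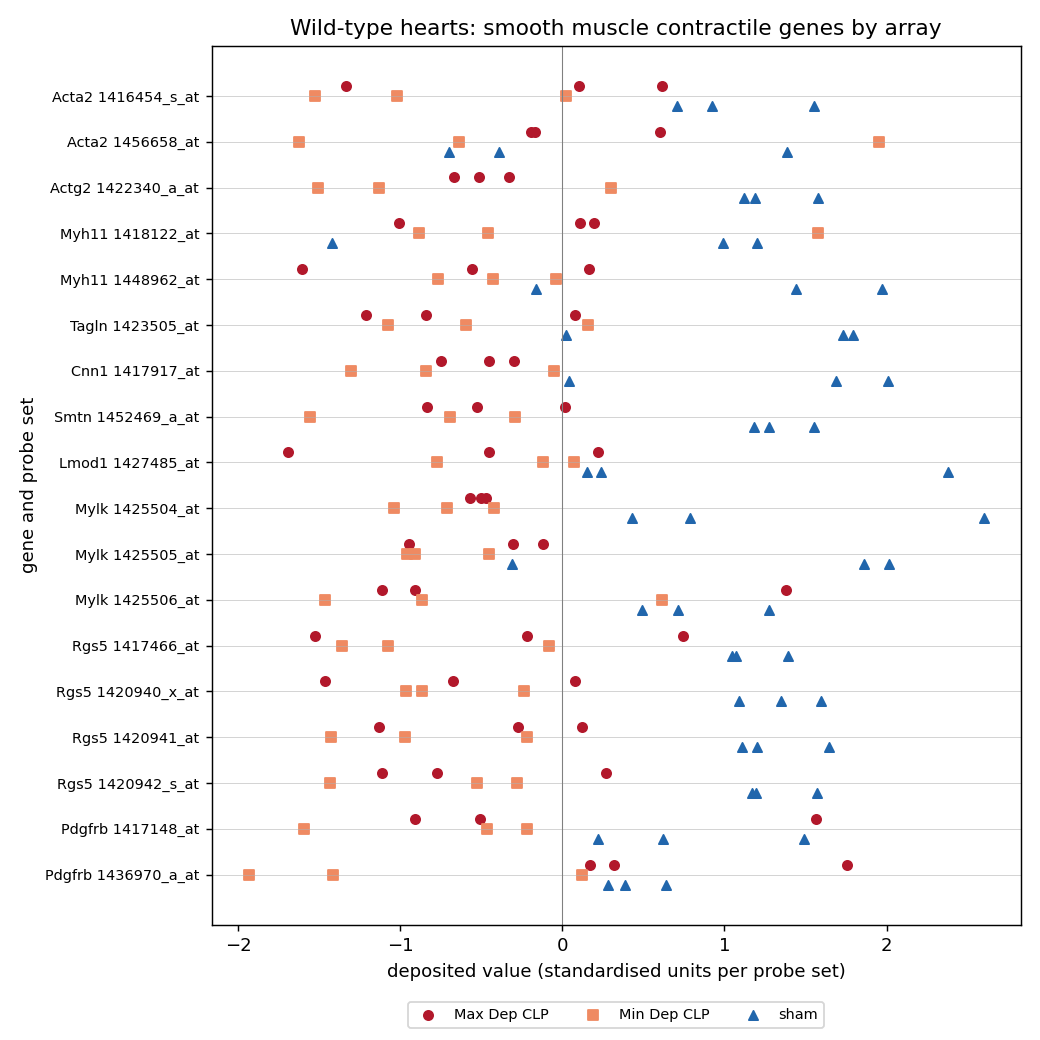
Deposited values (x axis, standardised units) of the 18 probe sets (y axis) in wild-type hearts, 1 point per array: Max Dep as red circles, Min Dep as orange squares and sham as blue triangles. All 3 sham points lie to the right of all 6 septic points for Smtn and for each of the 4 Rgs5 probe sets, while in Myh11 1418122_at and Acta2 1456658_at the 3 groups are mixed.

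The 2 actins are the building blocks of the smooth muscle thin filament, Acta2 that of arteries and Actg2 that of gut and other visceral muscle. Actg2 (1422340_a_at) had values of -0.67, -0.52 and -0.33 in Max Dep hearts, -1.13, 0.30 and -1.51 in Min Dep hearts, and 1.19, 1.12 and 1.57 in sham hearts. No septic heart reached the lowest sham heart, and Min Dep replicate 2 was the nearest. The septic minus sham difference of Actg2 was -1.94 ± 0.41 (SE), which did not pass with all arrays (limma adjusted p = 0.0689) and passed without Min Dep replicate 2 (-2.21, adjusted p = 0.0351). Acta2 on 1416454_s_at gave -1.33, 0.10 and 0.62 in Max Dep hearts, -1.02, 0.025 and -1.53 in Min Dep hearts, and 1.55, 0.93 and 0.71 in sham hearts. The groups do not overlap here either, although Max Dep replicate 3 came close to sham replicate 3, and the difference of -1.58 ± 0.55 did not pass (adjusted p = 0.186). The second Acta2 probe set, 1456658_at, spread from -1.62 to 1.95 in septic hearts and from -0.70 to 1.38 in sham hearts, with a difference of -0.11 ± 0.90, and the 2 Acta2 probe sets correlated at only r = 0.32 over the 9 arrays. In the array maker's naming the ending s marks probes that can match several transcripts, so the Acta2 value of 1416454_s_at may include other actins.

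The promoters of Acta2 and Lmod1 are shown because they hold letters close to the CArG box, the element through which Srf acts on many of these genes. Whether Srf acts at these near-matches was not tested. The 250 bases before the RefSeq transcript start (build GRCm38.p6) were searched on both strands. Of the 10 genes 6 had such a window, and an exact CArG box was found in 0 of the 6 and in 1.47% of 32851 windows of the same length. Allowing 1 differing letter, matches were found in Acta2 and Lmod1 only, while 18.6% of all windows hold one. The sequences run 5′ to 3′ on the strand of the gene, and capitals mark these near-matches, which start 84 and 34 bases before the start of Acta2 (chr19:34255374-34255623, minus strand) and 189 and 164 bases before that of Lmod1 (chr1:135324563-135324812, plus strand).
Acta2: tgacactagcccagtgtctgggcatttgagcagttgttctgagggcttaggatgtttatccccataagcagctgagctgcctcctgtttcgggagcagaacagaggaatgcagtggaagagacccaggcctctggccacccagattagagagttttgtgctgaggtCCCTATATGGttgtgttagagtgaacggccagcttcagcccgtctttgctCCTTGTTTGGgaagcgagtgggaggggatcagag
Lmod1: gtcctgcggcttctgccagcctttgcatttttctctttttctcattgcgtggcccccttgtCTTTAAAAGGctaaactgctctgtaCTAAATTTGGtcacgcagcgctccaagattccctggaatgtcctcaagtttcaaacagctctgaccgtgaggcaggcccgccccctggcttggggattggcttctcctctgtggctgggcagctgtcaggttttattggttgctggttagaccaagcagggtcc

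Myh11 encodes the myosin heavy chain of smooth muscle, the motor itself and the most specific marker of the differentiated cell. Its probe set 1448962_at gave -1.60, 0.17 and -0.56 in Max Dep hearts, -0.43, -0.040 and -0.77 in Min Dep hearts, and -0.16, 1.97 and 1.44 in sham hearts. Sham replicates 2 and 3 lie above every septic heart, but sham replicate 1 lies among them. The difference of -1.62 ± 0.60 did not pass (limma adjusted p = 0.206), and was -2.24 without sham replicate 1. The other Myh11 probe set, 1418122_at, showed no order, with -1.01 to 1.57 in septic hearts, -1.42 to 1.20 in sham hearts, and a difference of -0.34 ± 0.85, which turned to 0.14 without sham replicate 1. The 2 Myh11 probe sets correlated at r = -0.226 over the 9 arrays.

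Tagln (transgelin) and Cnn1 (calponin) bind the actin filament, and calponin damps the myosin motor. Tagln (1423505_at) gave -1.21, -0.84 and 0.079 in Max Dep hearts, -1.07, 0.16 and -0.60 in Min Dep hearts, and 0.025, 1.79 and 1.73 in sham hearts. Cnn1 (1417917_at) gave -0.45, -0.30 and -0.75 in Max Dep hearts, -0.84, -0.053 and -1.30 in Min Dep hearts, and 0.043, 1.68 and 2.01 in sham hearts. In both genes sham replicates 2 and 3 stand far above all septic hearts and sham replicate 1 sits at their upper edge, just above all of them for Cnn1 and below 2 of them for Tagln. The differences were -1.76 ± 0.55 for Tagln (limma adjusted p = 0.151) and -1.86 ± 0.51 for Cnn1 (adjusted p = 0.115). Without sham replicate 1 they were -2.34 and -2.46, neither past the threshold.

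Smtn (smoothelin) is an actin-binding protein of fully contractile smooth muscle, and was the member that passed. Its probe set 1452469_a_at gave -0.53, -0.84 and 0.019 in Max Dep hearts, -1.56, -0.29 and -0.69 in Min Dep hearts, and 1.27, 1.18 and 1.55 in sham hearts. The 3 sham hearts lay close together, and the highest septic heart, Max Dep replicate 3, was far below the lowest of them. Lmod1 (leiomodin), which starts new actin filaments in smooth muscle, was less separated on 1427485_at. It gave -0.45, 0.22 and -1.69 in Max Dep hearts, -0.12, 0.072 and -0.77 in Min Dep hearts, and 0.15, 0.24 and 2.38 in sham hearts. Sham replicate 3 alone stands apart for Lmod1, and the difference of -1.38 ± 0.67 did not pass (limma adjusted p = 0.32).

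Mylk encodes myosin light chain kinase, the enzyme that starts contraction. On 1425504_at it gave -0.47, -0.57 and -0.50 in Max Dep hearts, -1.03, -0.71 and -0.42 in Min Dep hearts, and 0.43, 0.79 and 2.60 in sham hearts. All septic hearts lie below all sham hearts, and the 3 Max Dep hearts are nearly equal. On 1425505_at septic hearts spread from -0.96 to -0.12, while sham replicates 2 and 3 stood at 2.02 and 1.86 and sham replicate 1 at -0.31. On 1425506_at Max Dep replicate 3, at 1.38, exceeded every sham heart. The differences were -1.89 ± 0.49, -1.80 ± 0.57 and -1.22 ± 0.73 in that order, with limma adjusted p of 0.105, 0.153 and 0.417, and the 3 probe sets correlated with each other at r = 0.493 to 0.828. Without sham replicate 1 that of 1425505_at was -2.55 ± 0.27 (adjusted p = 0.0656). Sham replicate 1 was thus the low sham heart of Tagln, Cnn1, Myh11 1448962_at and Mylk 1425505_at, while it stood with the other 2 for Smtn, Actg2 and Rgs5. It was the highest sham heart for Acta2 1416454_s_at (1.55), Pdgfrb 1417148_at (1.49) and Myh11 1418122_at (1.20). It is the array that stands alone for Xist and Eif2s3y, whose part in these values was not tested.

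Rgs5 switches off signalling by G protein-coupled vasoconstrictor receptors and is abundant in pericytes and arterial smooth muscle. Its 4 probe sets followed each other closely over the wild-type arrays, at r = 0.944 to 0.975. On 1420941_at Rgs5 gave -0.27, -1.13 and 0.12 in Max Dep hearts, -1.42, -0.22 and -0.97 in Min Dep hearts, and 1.20, 1.11 and 1.64 in sham hearts. All septic hearts lay below all sham hearts on each of the 4, with Max Dep replicate 3 the highest septic heart on each. The differences were -2.03 ± 0.37 on 1420940_x_at, -1.97 ± 0.38 on 1420941_at, -1.95 ± 0.40 on 1420942_s_at and -1.76 ± 0.55 on 1417466_at. Their limma adjusted p of 0.0522, 0.0575, 0.0634 and 0.149 missed the threshold. The first 3 pass, with adjusted p of 0.0373, 0.0477 and 0.0466, when the 6 septic hearts are fitted as 1 group, and 1420940_x_at passes when the scaling of each array is undone (adjusted p = 0.0445). The endings x and s mark probes that can match other transcripts. The promoter of Rgs5 is shown beside that of Smtn, as the windows of the genes with the lowest adjusted p among the members that have one. No CArG-like letters were found in either window, which says only that these letters are not in these 250 bases (Rgs5, chr1:169655251-169655500, plus strand; Smtn, chr11:3539293-3539542, minus strand; GRCm38.p6, RefSeq).
Rgs5: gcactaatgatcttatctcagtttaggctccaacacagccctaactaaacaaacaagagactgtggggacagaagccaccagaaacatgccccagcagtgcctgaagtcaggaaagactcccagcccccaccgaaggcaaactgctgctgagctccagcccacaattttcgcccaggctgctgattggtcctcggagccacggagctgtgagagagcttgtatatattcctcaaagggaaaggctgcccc
Smtn: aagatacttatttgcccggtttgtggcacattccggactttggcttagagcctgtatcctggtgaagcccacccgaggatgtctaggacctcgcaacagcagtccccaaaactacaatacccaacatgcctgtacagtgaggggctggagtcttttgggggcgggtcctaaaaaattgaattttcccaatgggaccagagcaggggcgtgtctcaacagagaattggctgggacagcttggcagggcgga

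Pdgfrb, the receptor tyrosine kinase by which smooth muscle cells and pericytes answer platelet-derived growth factor, was less clearly separated by sepsis in wild-type hearts. On 1417148_at it gave -0.91, -0.51 and 1.56 in Max Dep hearts, -1.59, -0.46 and -0.22 in Min Dep hearts, and 1.49, 0.22 and 0.62 in sham hearts. On 1436970_a_at it gave 0.32, 0.17 and 1.76 in Max Dep hearts, -1.93, 0.12 and -1.42 in Min Dep hearts, and 0.28, 0.64 and 0.39 in sham hearts. Min Dep hearts lie below all sham hearts on both probe sets, whereas Max Dep replicate 3 was the highest of the 9 hearts on both. The septic minus sham differences of -1.13 ± 0.67 and -0.60 ± 0.57 did not pass (limma adjusted p = 0.412 and 0.616).

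**Figure D2:**
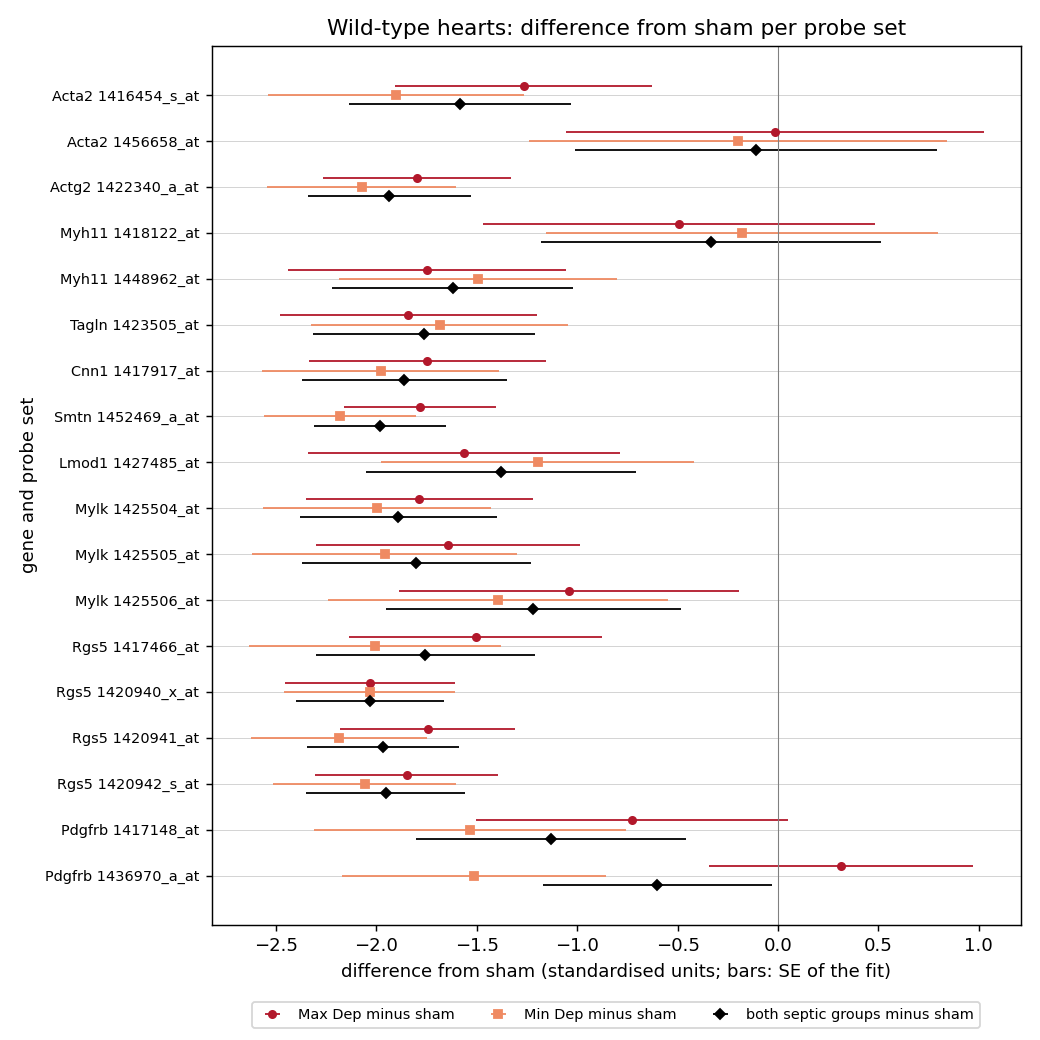
Difference from sham (x axis, standardised units) of each probe set (y axis) for Max Dep hearts (red circles), Min Dep hearts (orange squares) and both septic groups with equal weight (black diamonds), with bars for the SE of the fit. All points but 1 lie left of 0, the exception being Max Dep minus sham for Pdgfrb 1436970_a_at, and the bars of Max Dep and Min Dep overlap for all probe sets but that one.

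Set against sham one group at a time, no member passed in either septic group, and these comparisons share their sham hearts. In Max Dep hearts 17 of 18 differences were negative, with a median of -1.69 against -0.087 over all probe sets, and 9 of the 18 did not overlap with sham, against 14.2% of all. In that comparison 0 members passed, against 0.486% of all probe sets lower and 0.594% higher, or 0.161% of gene means lower. The exception in sign was Pdgfrb 1436970_a_at, at 0.31 in Max Dep and -1.51 in Min Dep hearts. The lowest adjusted p of a member were 0.0826 for Rgs5 1420940_x_at, at -2.03 ± 0.43, and 0.0842 for Smtn, at -1.78 ± 0.38 (limma). In Min Dep hearts 18 of 18 were negative, with a median of -1.93 against 0.116 over all, and 13 of the 18 did not overlap with sham, against 14.1%. Again 0 members passed, against 0.422% of all lower and 0.128% higher, or 0.0403% of gene means lower, with Smtn at -2.18 ± 0.38 (adjusted p = 0.0736) and Rgs5 1420941_at at -2.19 ± 0.44 (adjusted p = 0.089). Without Min Dep replicate 2, Actg2 passed, at -2.61 (adjusted p = 0.0488). At an unadjusted p under 0.05 stood 10 members in Max Dep and 11 in Min Dep hearts, against 19.8% and 17.4% of all probe sets.

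Max Dep hearts were then set against Min Dep hearts, the comparison of the 2 labelled degrees within sepsis. In this comparison 0 of 18 members passed, as did 0% of all 20380 probe sets in either direction and 0% of gene means, while 1979 probe sets stood at an unadjusted p under 0.05. The largest difference was that of Pdgfrb 1436970_a_at, 1.83 ± 0.66 higher in Max Dep hearts (limma adjusted p = 0.483, unadjusted p = 0.0321), the only member whose Max Dep and Min Dep hearts do not overlap. Over all probe sets 8.97% lay wholly higher and 6.28% wholly lower in Max Dep hearts. The second Pdgfrb probe set gave 0.81 ± 0.78. The other 16 probe sets lay between -0.37 for Lmod1 and 0.64 for Acta2 1416454_s_at, none with a difference much beyond its SE. Of the 18 members 4 were negative, against 51.5% of all probe sets, and the members' median was 0.253. With the scaling of each array undone 6 were negative, against 58.7% of all, and that step moved the median over all probe sets to -0.239, against -0.046.

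Member genes were correlated over the septic and sham wild-type hearts together. Over the 9 wild-type arrays the 45 pairs of member genes, each gene as the mean of its probe sets, had correlations from -0.051 for Pdgfrb and Lmod1 to 0.978, with a median of 0.636 and 40 pairs over 0.5. These arrays hold the septic and sham groups together and share their scaling, so the correlations include the difference between the groups. Correlation within the groups was not measured, and no value for other gene pairs is given. The mean of the 10 genes was -0.612, -0.406 and -0.108 in Max Dep hearts, -1.02, 0.021 and -0.847 in Min Dep hearts, and 0.606, 0.931 and 1.53 in sham hearts. Min Dep replicate 2 was the septic heart nearest to sham, and sham replicate 1 the sham heart nearest to sepsis. Of the genes outside the list, the 5 whose probe set followed this mean most closely over the 9 arrays were Vcl (vinculin, which ties actin to cell adhesions) at r = 0.988, Plxna1 (a semaphorin receptor) at 0.980, Vtn (vitronectin, a matrix protein of pericytes) at 0.974, Smim10l1 at 0.973 and Atp5pb (a subunit of mitochondrial ATP synthase) at 0.972. In the knockout table, the CLP minus sham differences of these probe sets were -2.07 ± 0.98 for Vcl and -4.98 ± 0.82 for Vtn, -0.41 ± 0.66 for Plxna1, 0.42 ± 0.72 for Smim10l1 and 0.56 ± 1.22 for Atp5pb, none past the threshold.

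In Nos2 knockout hearts 18 of 18 differences were negative, with a median of -2.14 log units of unknown base, against 0.036 over all probe sets. The 5′ minus 3′ control was -1.07, -2.06 and -0.776 in CLP hearts and -1.97, 0.209 and 0.981 in sham hearts, so the groups overlapped. With this control as a covariate 17 of the 18 stayed negative, with a median of -2.30. None passed, as in all 20380 probe sets, of which 0% passed in either direction and 0% as gene means by limma's moderated test, or 0 by unmoderated statistics; 2266 stood at an unadjusted p under 0.05. Of the members 7 stood at an unadjusted p under 0.05, and in 8 of the 18 the 2 CLP hearts tested lay below all 3 sham hearts, against 13.4% of all probe sets. The mean of the 10 genes was -0.916, -0.943 and -1.29 in CLP hearts and 0.600, 0.361 and 1.15 in sham hearts, without overlap. The pericyte-linked genes were furthest apart here. Rgs5 on 1417466_at gave -2.58, -2.25 and -3.69 in CLP hearts and 0.76, 1.78 and 0.85 in sham hearts, and Pdgfrb on 1436970_a_at gave -2.36, -1.98 and -3.21 in CLP hearts and 2.13, 3.03 and 0.41 in sham hearts. All CLP hearts lie far below all sham hearts in both. The differences over replicates 2 and 3 were -4.10 ± 0.64 for Rgs5 1417466_at (adjusted p = 0.123) and -4.46 ± 0.87 for Pdgfrb 1436970_a_at (adjusted p = 0.151), with -3.70 ± 0.73 for Pdgfrb 1417148_at (adjusted p = 0.152) and -3.73 ± 0.83 for Rgs5 1420942_s_at (adjusted p = 0.176). The other Rgs5 probe sets stood at -3.99 ± 1.28 on 1420941_at and -1.85 ± 1.19 on 1420940_x_at, where sham replicate 2, at 3.20, set the sham mean. With CLP replicate 1 included, Rgs5 1417466_at (adjusted p = 0.0363) and both Pdgfrb probe sets (adjusted p = 0.0494 each) pass, among 240 probe sets in all.

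Myh11 1448962_at was also clearly separated in knockout hearts, at -1.29, -0.90 and -2.48 in CLP hearts against 0.67, 1.68 and 1.83 in sham hearts, a difference of -3.09 ± 0.67 (limma adjusted p = 0.172). The other Myh11 probe set, 1418122_at, overlapped between the groups, with a difference of -0.27 ± 0.58 (adjusted p = 0.928). Tagln gave -0.96, -0.17 and -2.31 in CLP hearts against 2.77, 0 and 2.44 in sham hearts, or -2.98 ± 1.05 (adjusted p = 0.362). Acta2 1416454_s_at was set by 1 heart, with -1.01, 0 and -2.15 in CLP hearts against 1.38, -0.34 and 5.36 in sham hearts. Acta2 1456658_at also overlapped, with a difference of -1.64 ± 1.40. Smtn, the gene that fell in wild-type hearts, had -0.65, -1.93 and 0.28 in CLP hearts against 0.018, 0.51 and 1.16 in sham hearts, and its groups overlapped, with a difference of -1.39 ± 0.77. Mylk 1425505_at ranged most widely among CLP hearts, with -1.69, 0.16 and -3.98 against 0.67, 1.01 and -0.12 in sham hearts, while Mylk 1425504_at stayed between -0.10 and 0.10 in CLP hearts and between -0.051 and 0.64 in sham hearts. On Mylk 1425506_at the groups overlapped, with a difference of -1.55 ± 0.82. The other thin-filament members were close to 0, with differences of -0.03 ± 0.99 for Cnn1, -0.17 ± 0.51 for Lmod1 and -0.61 ± 0.55 for Actg2. Several of these values are exactly 0 in 1 array of a probe set, and 0.018 recurs in sham replicate 1, for a reason that is not given. Knockout sham replicate 2, which stands alone for Eif2s3y and is low for Xist, was the highest sham heart of Rgs5 1417466_at and of both Pdgfrb probe sets, and the lowest of Cnn1, at -2.48.

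**Figure D3:**
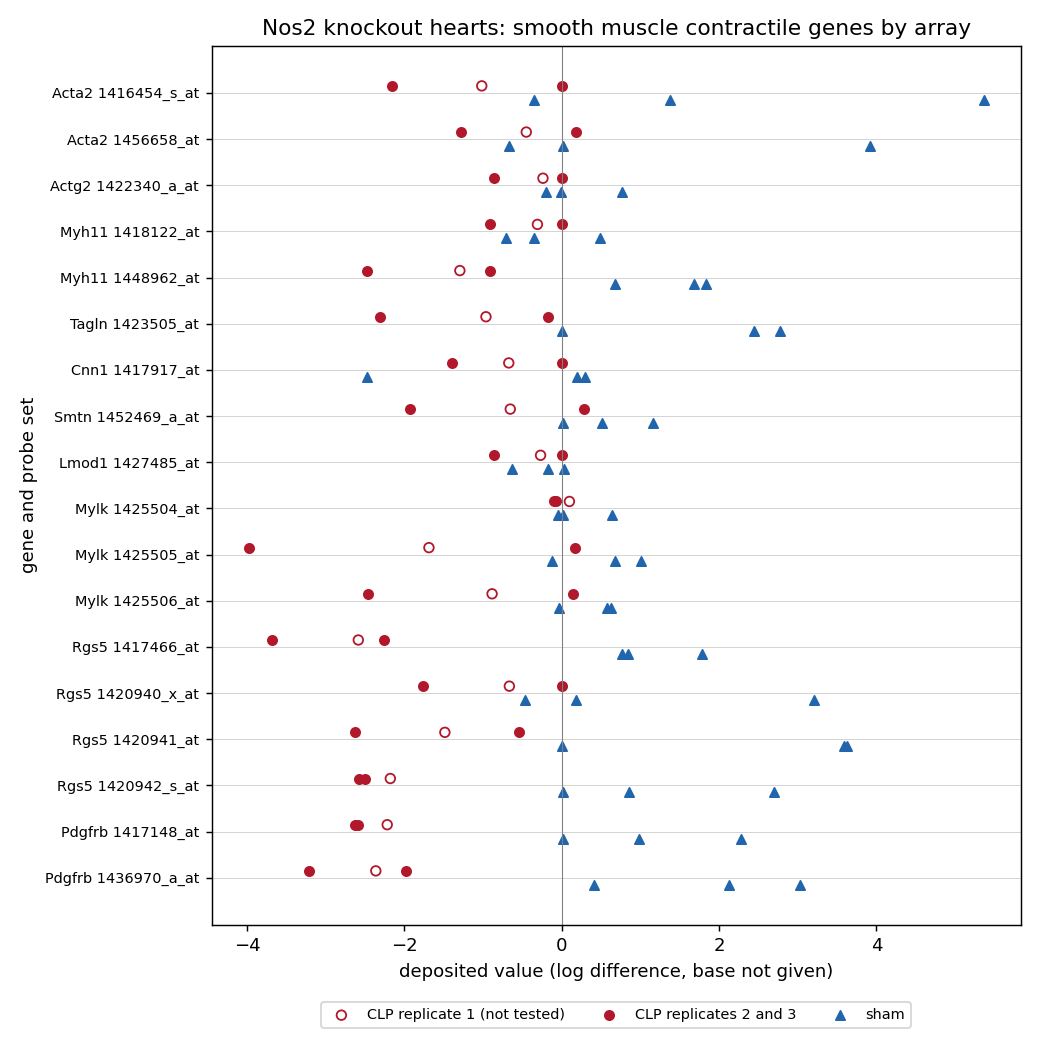
Deposited values (x axis, log differences of unknown base) of the 18 probe sets (y axis) in Nos2 knockout hearts, 1 point per array: CLP as red circles, hollow for replicate 1, which was left out of the test, and sham as blue triangles. The CLP points lie wholly left of the sham points for Pdgfrb, Rgs5 1417466_at, 1420941_at and 1420942_s_at, Myh11 1448962_at and Tagln, and overlap them for Cnn1, Smtn and Lmod1.

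Other genes of the contractile apparatus and its control were counted in wild-type hearts in the same fit, in which 1.54% of all probe sets passed as lower and 0.976% as higher. Of 20 measured genes of the smooth muscle cytoskeleton, on 44 probe sets, 3 probe sets passed as lower and 0 as higher, and 35 were negative, with a median of -1.22 against 0.027 over all. They were Synpo2 (synaptopodin 2, an actin-bundling protein) at -2.14 ± 0.18 (limma adjusted p = 0.0215), Csrp1 (a LIM-domain protein of smooth muscle) at -2.10 ± 0.28 (adjusted p = 0.0347) and Npnt (nephronectin, a matrix ligand of an integrin) at -1.81 ± 0.30 (adjusted p = 0.0438). Vcl stood at -2.00 (adjusted p = 0.0517). The regulators of the programme went no single way. Of 10 genes on 19 probe sets, 1 rose and 0 fell, and 8 were negative, with a median of 0.51: Mef2c, a muscle transcription factor, rose by 1.95 ± 0.32 on 1421027_a_at (adjusted p = 0.0433). Myocd stood at -1.87 ± 0.40 on 1425808_a_at (adjusted p = 0.0698) and at 0.51 ± 0.67 on 1425978_at, and the LIM-domain cofactor Fhl2 at -1.85 (adjusted p = 0.0602). The probe sets of Srf differed in sign, with -1.78 ± 0.55 on 1418256_at (adjusted p = 0.147) and 0.63 ± 0.25 on 1418255_s_at (adjusted p = 0.231). Among all these lists 0 probe sets pass without sham replicate 1.

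Of 13 measured vasoactive receptors and nitric oxide targets, on 25 probe sets, 1 passed as lower and 0 as higher, and 19 were negative, with a median of -1.04, against the same shares of all probe sets. Rgs4, a brake on G protein signalling like Rgs5, fell by 2.00 ± 0.35 on 1416286_at (limma adjusted p = 0.0482). On 1416287_at and 1448285_at Rgs4 gave -1.48 and -1.44 and did not pass (adjusted p = 0.201 and 0.246). Rgs3 stood at 1.88 on 1449516_a_at (adjusted p = 0.0522), but its other 3 probe sets gave -1.31, -1.04 and 0.45. Rgs2 stood at -1.62 on 1419247_at (adjusted p = 0.0532) and Gucy1b1, a subunit of the nitric oxide receptor guanylyl cyclase, at -1.86 on 1420871_at (adjusted p = 0.0686). Their other probe sets gave -1.26 for Rgs2 and -1.12 for Gucy1b1 (adjusted p = 0.277 and 0.446). Of 5 PDGF ligands and receptors beside Pdgfrb 0 of 9 probe sets passed, with a median of -1.17, and the list split by gene: the probe sets of Pdgfb, Pdgfd and Pdgfra lay between -1.72 and -1.17, and those of Pdgfa and Pdgfc between 0.68 and 1.49. Of 12 TGF-β pathway genes on 21 probe sets, 1 fell and 0 rose, and 14 were negative, with a median of -0.726, and the gene was the co-receptor Tgfbr3 at -1.95 ± 0.31 (adjusted p = 0.0419).

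Markers of other cell types were set beside the members, to be read against the same 1.54% lower and 0.976% higher of all probe sets, and their part in the members' values was not tested. All 12 pericyte probe sets, of 9 measured genes outside the member list, had a negative difference, with a median of -1.76, the same as the members, and 3 passed. Those were the potassium channel subunit Abcc9 at -2.07 ± 0.30 (limma adjusted p = 0.0394), the proteoglycan Cspg4 at -2.04 ± 0.30 on 1423341_at (adjusted p = 0.0401) and Vtn at -2.05 ± 0.32 on 1420484_a_at (adjusted p = 0.0414). The other probe sets of Cspg4 and Vtn did not pass, at -1.35 and -1.72 (adjusted p = 0.314 and 0.16). The mean of the pericyte genes ran from -0.956 to -0.012 in Max Dep hearts, from -0.952 to -0.09 in Min Dep hearts and from 1.06 to 1.15 in sham hearts. Of 10 fibroblast genes on 21 probe sets 1 fell, Mfap5 (a microfibril protein) at -2.05 ± 0.31 on 1418454_at (adjusted p = 0.041), with a median of -1.46, and their mean ran from -0.456 to 0.231 in Max Dep hearts, from -1.51 to 0.348 in Min Dep hearts and from 0.734 to 0.917 in sham hearts. Of 18 cardiomyocyte probe sets 1 fell, that of the calcium release channel Ryr2 (adjusted p = 0.0268), with a median of -0.664. Of 14 endothelial probe sets 0 passed and 4 were negative, with a median of 0.968, and 4 of 11 macrophage probe sets rose (of Tyrobp, Fcer1g, Adgre1 and C1qa), with a median of 1.83. The mean of the macrophage genes ran from 0.377 to 1.17 in Max Dep hearts, from 0.071 to 0.462 in Min Dep hearts and from -1.25 to -0.828 in sham hearts. Of 4 erythroid genes 2 were measured, and 0 of 2 probe sets passed.

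In knockout hearts 0 probe sets passed in each of these lists. The medians were -1.44 for pericyte, -1.46 for fibroblast and 3.1 for macrophage genes, each with the same sign as in wild-type hearts, and -3.05 for endothelial genes, the opposite sign. That opposite sign holds for the medians and not for every probe set. Of the 14 endothelial probe sets 13 were negative in knockout hearts and 4 in wild-type hearts. The mean of the endothelial genes ran from -2.21 to -0.397 in knockout CLP hearts and from 0.462 to 2.33 in knockout sham hearts. Furthest from 0 among the pericyte probe sets there was Vtn 1420484_a_at, at -4.98 ± 0.82 (limma adjusted p = 0.123). Next came Notch3, a receptor of mural cells, at -3.17 ± 0.55 on 1421965_s_at (adjusted p = 0.132). Abcc9 and Cspg4 1423341_at, which fell in wild-type hearts, were within their SE of 0 in knockout hearts, at -0.47 ± 0.61 and -0.04 ± 0.60. Anpep stood at 0.07 and Angpt1 at -0.09. The difference between wild-type and knockout hearts was not tested.

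**Figure D4:**
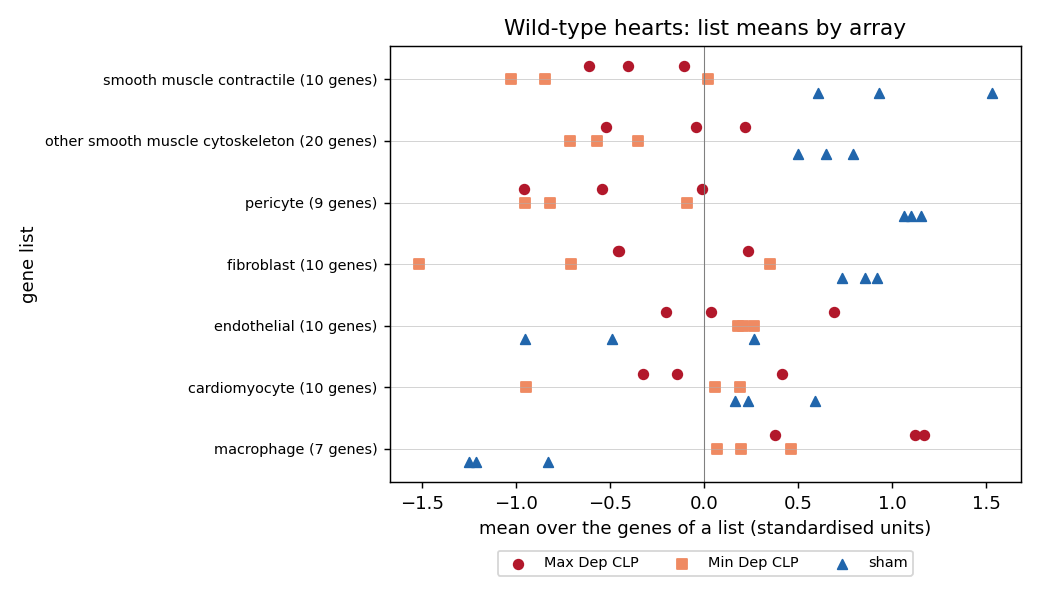
Mean over the genes of each list (x axis, standardised units) in each wild-type heart, for the smooth muscle contractile genes and 6 other lists (y axis), with Max Dep as red circles, Min Dep as orange squares and sham as blue triangles. Sham hearts lie right of all septic hearts for the contractile, other cytoskeleton, pericyte and fibroblast lists, and left of them for macrophages. In the endothelial list sham replicates 1 and 3 lie left of all septic hearts and sham replicate 2 among them. In the cardiomyocyte list sham replicate 1 lies right of all septic hearts and sham replicates 2 and 3 among them.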

How the data were processed

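Total RNA of 15 mouse hearts was measured, 1 array each. The authors deposited 2 tables of 22690 probe sets, 9 wild-type and 6 knockout arrays. Both hold a score: in the deposited wild-type score each probe set had mean 0 and SD 1 once a linear step of each array was reversed, and the deposited knockout score is centred per probe set. For the software behind them, the labels were read and name none (not given in the sources used here), and no intensities were used. Control probe sets (64) and those paired with several genes (691) or none (1555) were left out. Every remaining probe set was tested with lmFit of limma 3.58.1 (R 4.3.3), with Benjamini-Hochberg adjustment over all 20380 and a threshold of 0.05. Wild-type arrays used 1 fit with unmoderated statistics on 6 residual degrees of freedom, which do not depend on how a probe set was scaled. Knockout arrays used eBayes on 5 arrays. The scripts were tested on simulated data. The members, gene lists, tests and the use of probe sets as the unit were chosen with earlier results of these data known. All members are named. Of other lists, up to 4 genes of smallest p in wild-type CLP against sham are named, with Srf added as introduced above. Also named are the 5 genes most like the members' mean and the passing genes of the marker lists. For the knockout, the pericyte genes were named after their values were seen. The labels do not say whether replicates differ beyond being separate hearts; with so few arrays, precision is limited by their number. Alternatives were gene means, the other kind of statistic, scaling, an RNA quality covariate, other arrays in the fit and each array left out. One further gene list was computed and is not reported here.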

Additional observations from a re-analysis of the deposited data

How the results depend on the processing

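Of 964 recomputed member results, 911 kept their direction and side of the threshold, 11 lost a call, 9 gained one and 33 changed sign. The 11 lost calls are all of Smtn in wild-type CLP against sham, the only member result that had a call to lose. No paired analysis was run, because each array is a separate heart and the labels pair none of them. The labels give no replicate numbers, and those used here follow the order of the arrays in each group. In wild-type CLP against sham, where 1 member and 513 probe sets passed, gene means gave 0 and 89 genes, moderated statistics 0 and 0, the 5′ minus 3′ covariate 0 and 0, undone scaling 2 and 643, the septic arrays as 1 group 4 and 584, and leaving out 1 array 0 to 2 members and 0 to 443 probe sets. For Max Dep against sham (220 probe sets) the counts were 56 by gene means, 0 with moderation, 358 with undone scaling, 0 with the covariate, 0 with only the arrays compared and 0 to 16 with 1 array left out. For Min Dep against sham (112) they were 7, 0, 0 with the covariate, 3 with only the arrays compared, and 0 to 66 with 1 array left out, with 0 to 1 members. Max Dep against Min Dep gave 0 to 2 probe sets with 1 array left out, and all 6 knockout arrays gave 240 probe sets and 3 members. The cause was not tested.

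The sign changes with the covariate were, for wild-type CLP, Max Dep and Min Dep against sham, 0.97, 1.26 and 0.67 in Acta2 1456658_at and 0.17, 0.11 and 0.23 in Myh11 1418122_at; 0.037 (CLP) and 0.13 (Max Dep) in Lmod1 1427485_at; -0.41 in Pdgfrb 1436970_a_at (Max Dep; -0.21 by gene mean); and 0.039 in Myh11 1418122_at in knockout hearts. With 1 array left out, Acta2 1456658_at spanned -0.62 to 0.54 (CLP), -0.41 to 0.63 (Max Dep) and -1.23 to 0.56 (Min Dep), Myh11 1418122_at -1.17 to 0.14 (CLP) and -1.02 to 0.30 (Min Dep), and Pdgfrb 1436970_a_at -0.19 to 0.60 (Max Dep). In knockout hearts Cnn1 1417917_at spanned -0.94 to 0.66, Myh11 1418122_at -0.72 to 0.19 and Lmod1 1427485_at -0.59 to 0.26.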
